A study of Homo sapiens with 9 samples.

Results

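EHF, ELF3, ESRP1, ESRP2, GRHL1, GRHL2, OVOL1, KLF4 and KLF5 are transcription factors and splicing factors of epithelial cells. They were chosen by symbol, with earlier results of these data known. They are 9 of the 56609 gene symbols in the deposited table, and each symbol had 1 entry. RNA was sequenced in MCF10A, an established, non-tumorigenic human breast epithelial cell line, with 3 samples in each of 3 groups. Controls were untreated, the high calcium samples received 10 mM calcium with the calcium ionophore ionomycin (1 mM as labelled) for 16 h, and the TGFb3 samples received 10 nM TGFb3, a transforming growth factor beta ligand, for 16 h. All groups shared a medium with 5% horse serum, EGF, hydrocortisone, cholera toxin and insulin. Calcium and ionomycin were not given apart, and 1 cell line stands for breast epithelium here. Replicates carry numbers in the labels and nothing on whether each was its own culture; the spread behind every p-value may therefore be technical.

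ESRP1 and ESRP2 are RNA-binding proteins that switch many transcripts to their epithelial splice forms, among them those of FGFR2, CD44, CTNND1 and ENAH. Grainyhead-like factors (GRHL1, GRHL2) and OVO-like zinc finger factors (OVOL1) maintain epithelial junction genes and oppose ZEB and SNAI repressors in the epithelial-mesenchymal transition, the programme for which TGF-beta is best known in breast epithelium. EHF and ELF3 belong to the epithelium-specific branch of the ETS family. KLF4 and KLF5 are zinc finger factors of the Kruppel-like family, KLF4 tied to differentiation and arrest and KLF5 to proliferating basal cells.

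Of the 9 genes, EHF fell most after TGFb3, from 64.1 to 3.73 TPM, a length-normalised abundance, and ESRP1 rose most in high calcium, from 0.667 to 21.0 TPM. KLF4 rose in both treatments and ESRP2 fell in both. ELF3 and KLF5 rose in high calcium, OVOL1 rose after TGFb3, GRHL1 was called in no comparison, and GRHL2 was listed at 0 in every sample. The paralogs ESRP1 and ESRP2, and EHF and ELF3, moved in opposite directions in high calcium.

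**Figure D1:**
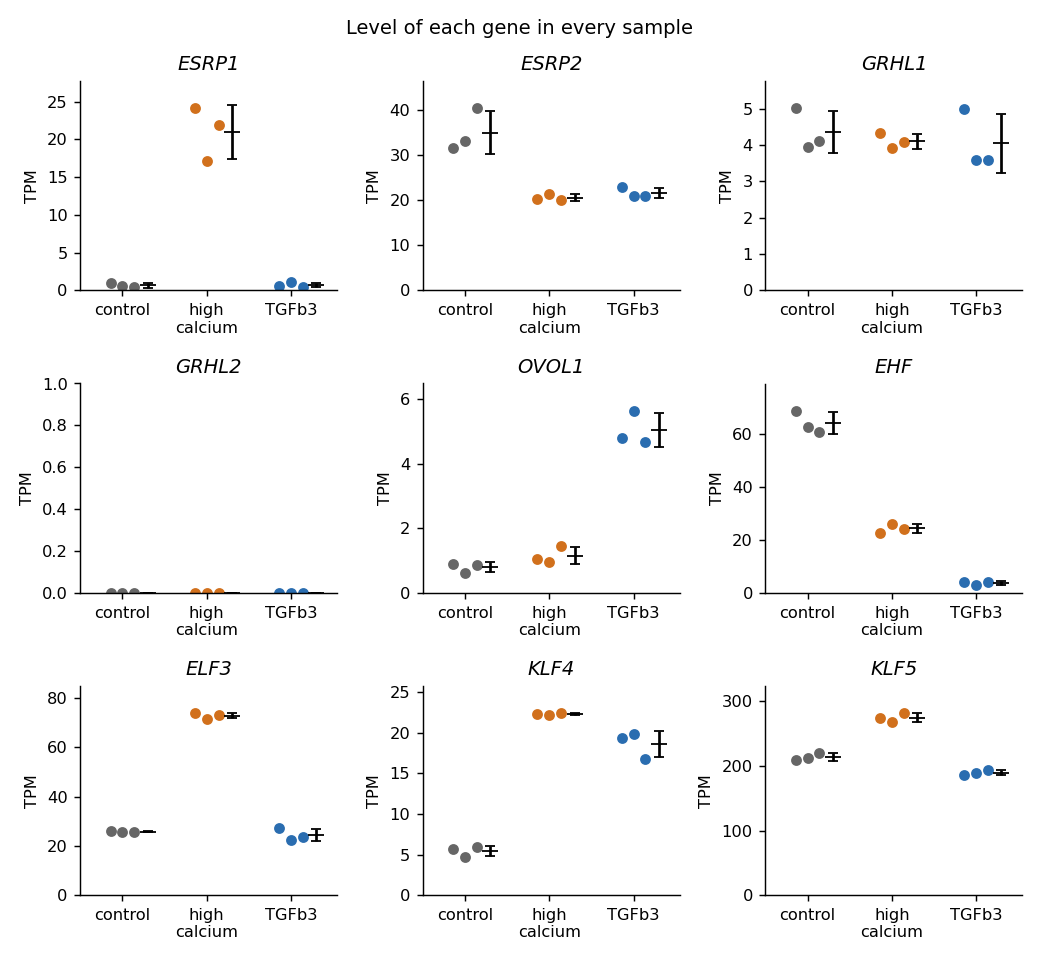
TPM of each of the 9 genes in every sample; points are the 3 samples of a group and the bar beside them is the mean ± SD, with a separate linear axis from 0 for each gene. ESRP1 is high only in the 3 high calcium samples (17.1 to 24.1 TPM), OVOL1 is highest in the 3 TGFb3 samples (4.67 to 5.63 TPM), and EHF steps down from the controls to high calcium to TGFb3.

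TPM sums to 1000000 in each library, so levels of different genes can be set side by side, but the sequencing depth is unknown. Log2 differences are given on the log2(TPM + 1) scale ± the standard error that limma estimated (n = 3 in each group), which understates changes of low genes. A gene was called at a Benjamini-Hochberg adjusted p under 0.05 across 13968 tested symbols, those averaging 1 TPM or more. Of the 9 genes 8 passed that filter, ESRP1 only through high calcium and OVOL1 only through TGFb3. Mitochondrial RNA took 21.7% to 23.3% of TPM in the controls, 11.1% to 11.9% in high calcium and 22.2% to 23.3% after TGFb3. Across all tested genes the log2 differences had a median of 0.22 in high calcium and -0.06 after TGFb3. Over all genes 6438 were called higher and 2378 lower in high calcium, and with median ratio rescaling 4117 and 4312. Differences relative to the median are therefore given where they matter. The line's identity was checked on 11 epithelial markers, summing to 5721 to 6134 TPM in the controls, 10582 to 10831 in high calcium and 8163 to 9414 after TGFb3. None was listed at 0 in all samples, but KRT19 was at most at 0.530 TPM in any sample, below the filter. Of 7 fibroblast markers COL1A2 was listed at 0, and their sum was 2.60 to 3.52 TPM in the controls, 9.99 to 12.6 in high calcium and 28.5 to 32.0 after TGFb3, nearly all of it from COL1A1 (13.6 to 17.0 after TGFb3) and DCN (12.2 to 14.9). COL3A1 and LUM were at 0 in the controls and TGFb3 samples. The defining immune markers PTPRC and CD3E, the endothelial marker CDH5 and the adipocyte markers ADIPOQ and LEP were listed at 0 in all 9 samples. The 5 immune markers summed to 19.5 to 23.4, 53.0 to 73.9 and 10.8 to 15.6 TPM in the 3 groups, all of it from CD14 and CD68. The 5 endothelial markers summed to 4.54 to 5.50, 11.7 to 12.6 and 1.67 to 2.51 TPM, nearly all of it from KDR and TEK. KDR averaged 3.96, 6.86 and 1.71 TPM in the 3 groups and TEK 0.894, 4.92 and 0.334 TPM. The 3 adipocyte markers summed to at most 0.529 TPM. The part of these markers in the results below was not tested. That of mitochondrial RNA was not tested either, beyond refits with its genes left out. With those genes left out alone, the median in high calcium was 0.05. In bulk RNA, fewer cells with a transcript and less of it per cell cannot be told apart.

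Start-site sequences of EHF and KLF4 are shown because EHF had the largest fall after TGFb3 and KLF4 was the one gene of the 9 that rose in both treatments. They are the 250 bases before a RefSeq start site (GRCh38.p14), 5′ to 3′ on the gene's strand. Capitals mark matches to 5 motifs searched on both strands in the 300 bases around each start: AACNNGTT (grainyhead factors), CACCTG (the E-box of ZEB and SNAI factors), GGAAGT (ETS), CCNCACCC (KLF) and TGANTCA (AP-1). The window of EHF, chr11:34624007-34624256 on the plus strand, lies in an intron of longer EHF transcripts in GENCODE 29, and 3 of 12 EHF transcripts start within 50 bases of this site. The window of KLF4, chr9:107489770-107490019 on the minus strand, lies within the gene but in none of its annotated exons.
EHF: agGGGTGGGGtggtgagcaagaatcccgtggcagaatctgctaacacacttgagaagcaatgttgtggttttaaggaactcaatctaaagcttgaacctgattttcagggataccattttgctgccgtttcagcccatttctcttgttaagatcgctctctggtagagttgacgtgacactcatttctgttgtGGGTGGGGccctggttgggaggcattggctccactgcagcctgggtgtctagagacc
KLF4: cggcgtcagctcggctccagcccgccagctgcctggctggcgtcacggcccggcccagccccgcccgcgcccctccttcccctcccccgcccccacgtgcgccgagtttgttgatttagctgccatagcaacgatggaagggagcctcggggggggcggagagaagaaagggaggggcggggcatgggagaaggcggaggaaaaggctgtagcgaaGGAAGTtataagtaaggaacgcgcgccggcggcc
In EHF the capitals are 2 KLF motifs on the minus strand, starting 248 and 57 bases before the start site. In KLF4 they are 1 ETS motif on the plus strand, starting 34 bases before it. A KLF motif was in 18.3% and an ETS motif in 22.8% of all 35116 promoter entries. ELF3 had 1 E-box, found in 20.6% of entries, inside an exon of longer ELF3 transcripts at chr1:202010457-202010482 on the plus strand, shown with the E-box in capitals.
ELF3: atatgcaaatCACCTGgggccaggag
ELF3 and the second entry of KLF5 also held a KLF motif, while the second entry of EHF, the first of KLF5 and the entry of GRHL1 held none of the 5. No entry of the 9 genes held the grainyhead motif (3.52% of all entries) or the AP-1 motif (7.71%). In all 7 entries of 5 genes were searched. A match describes letters in a window and nothing more.

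High calcium against control asks how these cells respond to raised calcium, which the series title links to milk stasis. Of the 8 tested genes 4 were called higher, where 46.1% of all tested genes were, and 2 were called lower, where 17.0% were. The 4 were ESRP1, KLF4, ELF3 and KLF5, and the 2 were EHF and ESRP2. Samples of the 2 groups did not overlap for 7 of the 8 genes, against 69.0% of all tested genes. After TGFb3 2 of 8 were higher (OVOL1 and KLF4), where 26.5% of all tested genes were, and 3 lower (EHF, ESRP2 and KLF5), where 33.1% were. Groups were apart for 5 of the 8, against 63.8% of all tested genes. Both comparisons use the same 3 control samples.

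**Figure D2:**
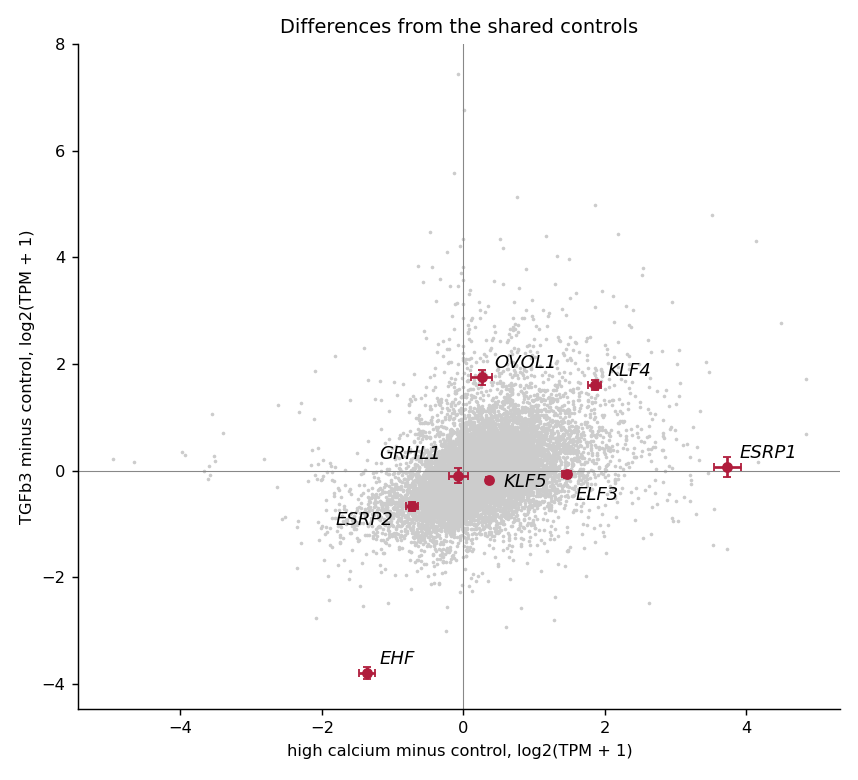
Log2 difference of TPM + 1 from the control in high calcium (x axis) and after TGFb3 (y axis) for 13968 symbols (grey) and 8 of the 9 genes (red, bars are standard errors). EHF lies at the bottom of the plot at -1.36 and -3.79, ESRP1 far right at 3.73 and 0.07, and KLF4 in the upper right at 1.86 and 1.61; the axes share the control samples.

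ESRP1 was at 1.04, 0.532 and 0.425 TPM in the controls. In high calcium it was at 24.1, 17.1 and 21.9 TPM, and after TGFb3 at 0.649, 1.08 and 0.498 TPM. Only the high calcium samples stood high, with no overlap with either other group, and the control and TGFb3 samples were mixed. The mean in high calcium was 31.6 times the control mean of 0.667 ± 0.330 TPM, a log2 difference of 3.73 ± 0.19 on the scale with a pseudocount (adjusted p = 1.2e-07). That was the rise of rank 7 among the 13968 tested genes, a set that ESRP1 entered only through its high calcium samples. With a pseudocount of 0.1 the log2 difference was 4.85. After TGFb3 the log2 difference was 0.07 ± 0.19 (adjusted p = 0.78, 95% interval -0.36 to 0.50), so a change was not detectable there at this low level. The difference between the treatments was 3.66 ± 0.19 (adjusted p = 1.2e-07). The gene lies on chromosome 8 (94641074 to 94707466, plus strand, GENCODE 29) and overlaps a processed pseudogene, AC108860.1, listed at 0 throughout.

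ESRP2, its paralog, went down in both treated groups. Control samples held 31.7, 33.1 and 40.5 TPM, high calcium samples 20.3, 21.5 and 20.1 TPM, and TGFb3 samples 22.9, 20.9 and 21.1 TPM. Every control sample was above every treated sample, and the 2 treated groups overlapped. ESRP2 fell by 0.73 ± 0.09 in high calcium (adjusted p = 4.8e-05) and by 0.67 ± 0.09 after TGFb3 (adjusted p = 9.3e-05) on the log2 scale, 1.70- and 1.62-fold in TPM. Between the treatments the difference was -0.06 ± 0.09 (adjusted p = 0.54, 95% interval -0.26 to 0.13). Relative to the median of all genes that difference was -0.33, and ESRP2 was called lower in high calcium under 4 other scalings, at -0.25 to -0.35 (adjusted p = 0.0027 to 0.032). The 3′ end of ESRP2 (chromosome 16, 68229111 to 68238102, minus strand) overlaps that of NFATC3 on the other strand, which was at 20.4 to 28.0 TPM in the controls, 21.9 to 25.1 in high calcium and 14.6 to 21.1 after TGFb3. Reads from this overlap cannot be told apart without the libraries' strandedness.

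Summed ESRP1 and ESRP2 RNA was 35.8 ± 4.48 TPM in the controls, 41.7 ± 2.90 in high calcium and 22.4 ± 1.06 after TGFb3. ESRP1 made up 1.94 ± 1.12% of that sum in the controls, 50.2 ± 5.26% in high calcium and 3.33 ± 1.41% after TGFb3. Its share was 44.3% to 54.3% in the high calcium samples and at most 4.94% in the other 6. The share in high calcium differed from the control with an exact two-sided permutation p of 0.1, the smallest that 3 samples against 3 allow, or 0.12 adjusted over 27 comparisons of 9 such quantities. The sums of the high calcium samples (38.6 to 44.4 TPM) overlapped those of the controls (32.7 to 40.9 TPM; exact permutation p = 0.2), and with median ratio rescaling the means were 36.6 and 37.4. The sum was lower in every TGFb3 sample than in every control (exact permutation p = 0.1). Gene-level values hold no splice forms, so the splicing that ESRP proteins direct was not analysed here.

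**Figure D3:**
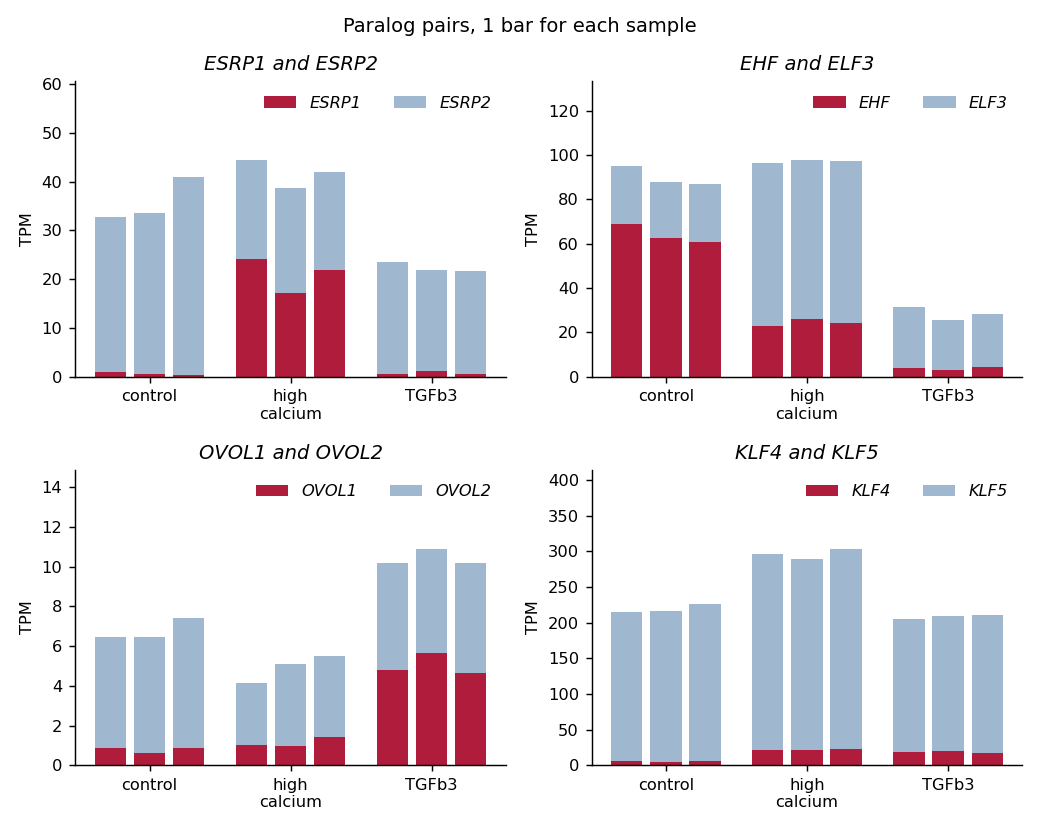
TPM of 4 paralog pairs stacked in 1 bar for each sample, on linear axes from 0, with the named pair in the legend of each panel. The red part shows ESRP1 at 50.2% of the ESRP sum in high calcium against 1.94% in the controls, EHF at 25.1% of the EHF and ELF3 sum against 71.2%, and OVOL1 at 48.3% of the OVOL sum after TGFb3 against 11.8%.

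Transcripts known to be spliced by ESRP proteins were measured for 12 genes, all of them tested. In high calcium 5 were higher, 2 lower and 5 not called, where 46.1% of all tested genes were higher and 17.0% lower. The median log2 was 0.12 against 0.22 for all genes, and median ratio rescaling gave 4 higher and 6 lower. CD44, a hyaluronan receptor, rose from 203 ± 7.32 to 350 ± 13.5 TPM, and ENAH, an actin regulator, from 81.5 ± 7.22 to 143 ± 6.94 TPM. After TGFb3 7 were higher, 1 lower and 4 not called (median 0.23 against -0.06), where 26.5% of all genes were higher and 33.1% lower. PALLD, an actin-binding protein, rose from 69.1 ± 3.36 to 211 ± 10.1 TPM and SCRIB, a polarity protein, fell by 0.42 ± 0.11 on the log2 scale.

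Of 12 other splicing regulators 8 were lower, 2 higher and 2 not called in high calcium. Of all tested genes 17.0% were lower and 46.1% higher there. The median log2 of the 12 was -0.29 against 0.22 for all genes, and median ratio rescaling gave 10 lower and 1 higher. HNRNPM, a regulator of CD44 splicing, fell from 321 ± 6.54 to 142 ± 2.77 TPM. The polypyrimidine tract-binding protein PTBP1 fell from 178 ± 2.88 to 100.2 ± 2.12 TPM. MBNL2, of the muscleblind family, rose from 49.3 ± 1.51 to 169 ± 3.87 TPM, a log2 difference of 1.75 ± 0.06. After TGFb3 8 were lower, 1 higher and 3 not called (median -0.37 against -0.06), where 33.1% of all genes were lower and 26.5% higher. RBM47, which acts with ESRP proteins on epithelial exons, fell by 0.69 ± 0.09 on the log2 scale, and RBFOX2 was the 1 called higher, at 0.40 ± 0.05.

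In TPM, EHF was at 68.8, 62.5 and 60.9 in the controls, at 22.7, 26.1 and 24.3 in high calcium and at 3.96, 2.94 and 4.29 after TGFb3. The 3 groups did not overlap, and the control level was 2.63 times that in high calcium and 17.2 times that after TGFb3. EHF fell by 3.79 ± 0.11 on the log2 scale after TGFb3 (adjusted p = 3.6e-09), rank 1 among the falls of all 13968 tested genes. In high calcium it fell by 1.36 ± 0.11 (adjusted p = 2.5e-06), rank 156. Both ranks are on log2(TPM + 1), which understates falls of low genes. The difference between the treatments, 2.43 ± 0.11, was also called (adjusted p = 4e-08). EHF (chromosome 11, 34621093 to 34661057, plus strand) overlaps no other annotated gene.

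ELF3, which binds the same kind of ETS site, had control levels of 26.1, 25.5 and 25.9 TPM and high calcium levels of 73.8, 71.6 and 73.2 TPM. These groups lay far apart, and ELF3 rose by 1.46 ± 0.07 on the log2 scale, 2.82-fold in TPM (adjusted p = 4.5e-08). After TGFb3 it was at 27.3, 22.6 and 23.8 TPM, overlapping the controls, with a log2 difference of -0.07 ± 0.07 (adjusted p = 0.35, 95% interval -0.22 to 0.07). Without TGFb3 replicate 1 that difference was -0.15 and was called (adjusted p = 0.024). ELF3-AS1, an antisense RNA that overlaps the 5′ part of ELF3 (chromosome 1, 202007945 to 202017188), was at 1.17 to 1.52 TPM in the controls and 4.84 to 8.30 TPM in high calcium. The strandedness of the libraries is not given in the sources used here, so reads of this pair cannot be told apart.

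The summed level of EHF and ELF3 was 89.9 ± 4.35 TPM in the controls, 97.2 ± 0.617 in high calcium and 28.3 ± 2.89 after TGFb3. EHF made up 71.2 ± 1.20% of the sum in the controls, 25.1 ± 1.58% in high calcium and 13.2 ± 1.93% after TGFb3. The order of the 2 genes thus turned in both treated groups: in high calcium EHF fell and ELF3 rose, and after TGFb3 EHF alone was called. Each of these 4 differences from the control had an exact permutation p of 0.1 (0.12 adjusted over the 27), the smallest possible. The direction of the sum in high calcium depended on the scaling, since with median ratio rescaling it was 85.4 ± 1.07 against 94.4 ± 6.94 in the controls, while the shares do not depend on it.

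Among the 25 other ETS factors 15 were tested, while the epithelial relatives ELF5 and SPDEF were at most at 0.0749 and 0.117 TPM in any sample. In high calcium 7 were higher, 4 lower and 4 not called, where 46.1% of all tested genes were higher and 17.0% lower. The median log2 was 0.01 against 0.22 for all genes, and rescaling by median ratio gave 2 higher and 8 lower. ETS2 rose from 78.4 ± 1.87 to 145 ± 2.56 TPM, and FLI1 fell by 0.71 ± 0.07 on the log2 scale. After TGFb3 6 were higher, 5 lower and 4 not called (median -0.09 against -0.06), where 26.5% of all genes were higher and 33.1% lower. ETS1, an activator of matrix protease genes, rose from 17.7 ± 1.63 to 65.3 ± 7.45 TPM and ELK3, a ternary complex factor, from 51.4 ± 0.609 to 149 ± 5.23 TPM. In high calcium ETS1 fell by 0.69 ± 0.09 on the log2 scale.

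KLF4 levels in TPM were 5.65, 4.72 and 5.92 in the controls, 22.2, 22.1 and 22.4 in high calcium and 19.3, 19.8 and 16.7 after TGFb3. Both treated groups lay above all controls, 4.10- and 3.43-fold in mean TPM. KLF4 rose by log2 1.86 ± 0.09 in high calcium (adjusted p = 8.1e-08) and by 1.61 ± 0.09 after TGFb3 (adjusted p = 2.3e-07). The treatments differed by 0.25 ± 0.09 (adjusted p = 0.032), but that call changed with the setting. It was lost without high calcium replicate 1, 2 or 3 (adjusted p = 0.073, 0.070 and 0.078) or TGFb3 replicate 3 (0.12), with a replicate block (0.057) and with no filter (0.056), and the difference was -0.04 after median ratio rescaling. KLF4 (chromosome 9, 107484852 to 107490482, minus strand) overlaps no other annotated gene.

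KLF5 was the most abundant of the 9 genes in every sample. Its TPM was 210, 212 and 220 in the controls, 274, 267 and 281 in high calcium and 186, 189 and 194 after TGFb3, with no overlap between groups. Its log2 difference was 0.36 ± 0.04 in high calcium (adjusted p = 1.7e-05), or 0.13 above the median of all genes and 0.10 to 0.24 under the other scalings, where it stayed called. After TGFb3 KLF5 fell by 0.17 ± 0.04 (adjusted p = 0.0025), a call lost after quantile normalisation (-0.09, adjusted p = 0.086). KLF4 made up 2.48 ± 0.253% of the KLF4 and KLF5 sum in the controls, 7.50 ± 0.138% in high calcium and 8.94 ± 0.870% after TGFb3.

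Of the 15 other KLF genes 10 were tested. In high calcium 7 were higher, 1 lower and 2 not called, where 46.1% of all tested genes were higher and 17.0% lower. The median log2 was 0.42 against 0.22 for all genes, and median ratio rescaling gave 4 higher and 3 lower. KLF6 rose from 71.1 ± 0.214 to 162 ± 4.48 TPM, and KLF10, an early target of TGF-beta, fell from 32.4 ± 1.22 to 13.1 ± 1.09 TPM. After TGFb3 6 were higher, 1 lower and 3 not called (median 0.53 against -0.06), where 26.5% of all genes were higher and 33.1% lower. KLF10 rose to 83.7 ± 6.14 TPM, KLF6 to 205 ± 4.73 TPM and KLF7 from 16.9 ± 0.612 to 62.6 ± 2.59 TPM.

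OVOL1, a repressor of ZEB genes, had control levels of 0.894, 0.617 and 0.878 TPM, and TGFb3 levels of 4.80, 5.63 and 4.67 TPM. The TGFb3 samples were all above the others, and OVOL1 rose by log2 1.75 ± 0.15 (adjusted p = 3.5e-06), 6.32-fold in TPM. OVOL1 passed the filter on low values only through these TGFb3 samples. In high calcium it was at 1.05, 0.959 and 1.44 TPM, each above the controls. The log2 difference of 0.26 ± 0.15 was not called (adjusted p = 0.15, 95% interval -0.07 to 0.58). Relative to the median of all genes it was 0.03, and under the alternatives it ranged from -0.12 to 0.48. OVOL1-AS1, antisense within OVOL1 (chromosome 11, 65787022 to 65797219), was at 2.28 to 3.84 TPM in the controls, 2.66 to 3.49 in high calcium and 7.94 to 13.4 after TGFb3. A second antisense gene there, AP001266.1, was listed at 0 in every sample but TGFb3 replicate 1, at 6.51 TPM. Without strand information the reads of these genes and of OVOL1 cannot be told apart.

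OVOL2, the second OVO factor, fell from 5.98 ± 0.504 to 3.75 ± 0.582 TPM in high calcium (log2 -0.56 ± 0.11, adjusted p = 0.0017) and was at 5.38 ± 0.129 TPM after TGFb3. OVOL1 was 11.8 ± 2.18% of their sum in the controls, 23.5 ± 4.05% in high calcium and 48.3 ± 3.07% after TGFb3. OVOL3 was listed at 0.

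Levels of GRHL1 in TPM were 5.01, 3.96 and 4.10 for the controls, 4.32, 3.91 and 4.08 for high calcium and 4.99, 3.59 and 3.58 for TGFb3. All 3 groups overlapped. Its log2 difference was -0.07 ± 0.13 in high calcium (95% interval -0.37 to 0.24) and -0.09 ± 0.13 after TGFb3 (-0.39 to 0.21), with adjusted p of 0.69 and 0.58. After quantile normalisation the first was -0.45 and called (adjusted p = 0.015). GRHL1 lies on chromosome 2 (9951693 to 10002277, plus strand) and overlaps no other annotated gene.

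GRHL2 (chromosome 8, 101492432 to 101669726, plus strand) was listed at 0 in all 9 samples and gives no comparison. Of the 19788 protein-coding entries 23.6% were at 0 in every sample, and none of 32 genes that every cell uses was, a list chosen after the values were seen. Whether the 0 of GRHL2 is an absence of RNA or a failed estimate was not tested. GRHL3, the third grainyhead factor, was at 14.2 ± 2.24, 13.3 ± 0.983 and 15.6 ± 1.39 TPM in the 3 groups and was called in neither comparison with the control. Summed GRHL1 and GRHL3 RNA was 18.6 ± 2.16 TPM in the controls, 17.4 ± 0.792 in high calcium and 19.6 ± 1.74 after TGFb3 (exact permutation p = 0.4 and 0.7), and with median ratio rescaling 15.3 ± 0.771 in high calcium against 19.5 ± 1.88 in the controls, without overlap (exact permutation p = 0.1). Of GRHL3 and the 3 related CP2 factors 1 was higher and 3 not called in high calcium (0 higher and 3 lower when rescaled by median ratio). After TGFb3 3 of them were lower and 1 not called. Of all tested genes 46.1% were higher in high calcium and 33.1% lower after TGFb3. TFCP2L1 fell by log2 0.68 ± 0.08 after TGFb3. TFCP2 rose by 0.33 ± 0.05 in high calcium, but by 0.08 and without a call after median ratio rescaling (adjusted p = 0.17).

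Of 6 tested repressors of epithelial genes, the ZEB, SNAI and TWIST genes, 4 were higher and 2 lower after TGFb3. The share of all tested genes was 26.5% higher and 33.1% lower. The median log2 of the 6 was 0.89 against -0.06 for all genes. SNAI2 rose from 50.1 ± 3.84 to 265 ± 23.7 TPM and SNAI1 from 0.553 ± 0.120 to 7.43 ± 0.663 TPM, while TWIST1 and TWIST2 were the 2 called lower. SNAI1 and ZEB2 passed the filter on low values only with the TGFb3 samples included. ZEB1 rose from 0.586 ± 0.0519 to 2.32 ± 0.471 TPM. In high calcium SNAI2 fell by 0.35 ± 0.07 on the log2 scale, and ZEB1 and ZEB2 had differences of 0.63 ± 0.22 and 0.43 ± 0.15. Both were called as deposited (adjusted p = 0.032 and 0.026) and not after median ratio rescaling (0.49 and 0.31, adjusted p = 0.073 and 0.097) or quantile normalisation (0.24 and 0.05, adjusted p = 0.36 and 0.81). The call of ZEB1 was lost without control replicate 1, 2 or 3 (adjusted p = 0.077, 0.061 and 0.066) or high calcium replicate 1, where the difference was 0.36 (adjusted p = 0.11), and with a replicate block (adjusted p = 0.055). The call of ZEB2 was lost without control replicate 1 or 3 (adjusted p = 0.078 and 0.050) or high calcium replicate 1 or 3 (0.060 and 0.092).

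Junction and surface genes linked to grainyhead factors numbered 16, of which 12 were tested. In high calcium 11 were higher, 0 lower and 1 not called, where 46.1% of all tested genes were higher and 17.0% lower. The median log2 was 0.61 against 0.22 for all genes, and rescaling by median ratio gave 8 higher and 0 lower. The serine protease PRSS8 rose from 9.39 ± 1.14 to 33.1 ± 1.87 TPM and the tight junction protein CLDN4 from 4.88 ± 0.993 to 15.2 ± 0.386 TPM. After TGFb3 5 were higher, 3 lower and 4 not called (median 0.24 against -0.06), where 26.5% of all genes were higher and 33.1% lower. EPCAM, an epithelial adhesion protein, fell from 294 ± 15.4 to 118 ± 5.87 TPM and TGM1, a transglutaminase of the cornified envelope, from 104 ± 9.15 to 37.4 ± 4.02 TPM. CLDN4 rose to 29.5 ± 5.54 TPM and CDH1, the E-cadherin gene, from 94.3 ± 7.03 to 182 ± 11.5 TPM.

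Of 19 other epithelial transcription factors 14 were tested, some of them also in the families above. In high calcium 9 were higher, 1 lower and 4 not called, where 46.1% of all tested genes were higher and 17.0% lower. The median log2 was 0.32 against 0.22 for all genes, and median ratio rescaling gave 5 higher and 4 lower. TFAP2A, an AP-2 factor of surface epithelium, rose from 85.1 ± 2.18 to 131 ± 3.25 TPM, a log2 difference of 0.62 ± 0.04. After TGFb3 5 were higher, 4 lower and 5 not called (median 0.01 against -0.06), where 26.5% of all genes were higher and 33.1% lower. TFAP2C, a factor of breast epithelium, fell from 29.3 ± 1.71 to 12.4 ± 1.40 TPM, while SOX9 rose from 7.98 ± 1.16 to 24.3 ± 0.836 TPM. The repressor PRDM1 was at 1.21 ± 0.159, 6.66 ± 0.270 and 11.6 ± 0.894 TPM and rose in both treatments.

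**Figure D4:**
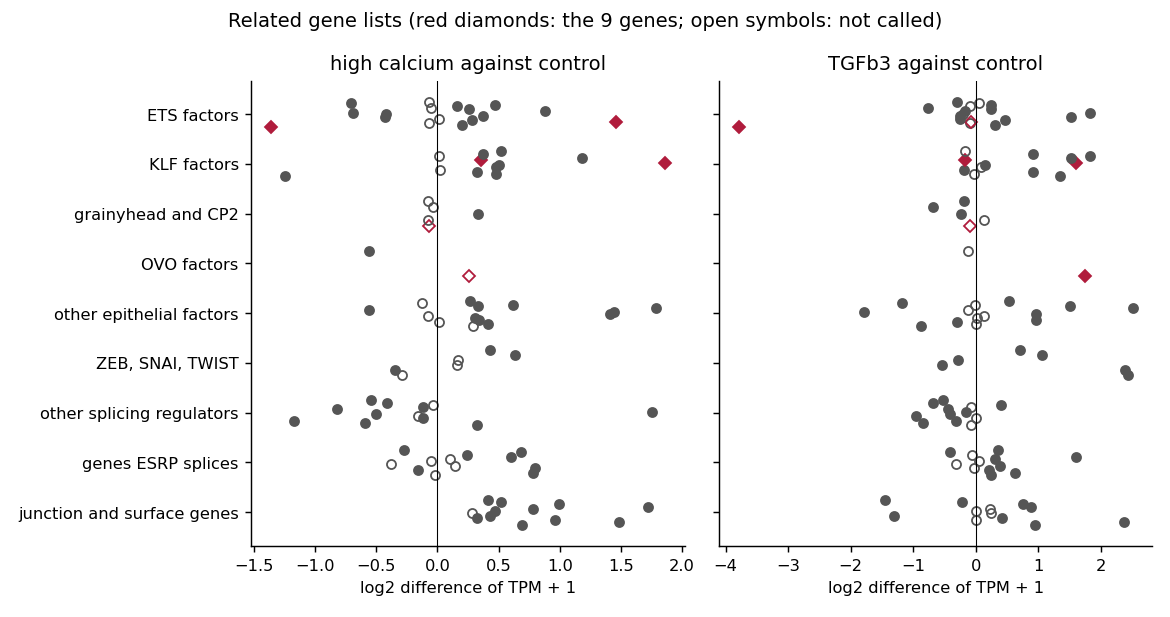
Log2 difference of TPM + 1 from the control for each tested gene of 9 related lists, in high calcium (left) and after TGFb3 (right); filled symbols were called, open ones were not, and red diamonds are members of the 9 genes. EHF at -3.79 lies apart from the other ETS factors after TGFb3, and 11 of 12 junction and surface genes lie to the right of 0 as called rises in high calcium. Of all tested genes 46.1% were called higher there, and with median ratio rescaling 8 of the 12 were.

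The order of the levels changed between groups. In the controls it ran KLF5, EHF, ESRP2, ELF3, KLF4, GRHL1, OVOL1, ESRP1 and GRHL2, and the sample ranges of KLF4 and GRHL1, and of OVOL1 and ESRP1, overlapped. In high calcium ELF3 stood above EHF, and KLF4, ESRP1 and ESRP2 followed between 17.1 and 24.1 TPM, with ranges of neighbours that overlapped. After TGFb3 only ESRP1 and GRHL2 stood below EHF, its range overlapping that of GRHL1, and the ranges of ELF3 and ESRP2, and of OVOL1 and GRHL1, also overlapped. High calcium against TGFb3 called 5 of the 8 genes higher (ESRP1, EHF, ELF3, KLF5 and KLF4), where 50.4% of all tested genes were, and OVOL1 lower, where 16.2% were. Samples did not overlap for 6 of the 8 genes, against 71.2% of all tested genes. OVOL1 was lower by log2 1.49 in high calcium than after TGFb3 (-1.49 ± 0.15, adjusted p = 9.9e-06). ELF3 was higher by 1.54 ± 0.07 (adjusted p = 2.8e-08) and KLF5 by 0.53 ± 0.04 (adjusted p = 9.1e-07).

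Genes most like each of the 8 were those with the smallest distance between their pair of log2 differences, high calcium and TGFb3 each minus control, a description over group means of 9 samples. For EHF the nearest, HYPK, lay at a distance of 1.25 (-2.08 and -2.77), before the glutamate transporter SLC1A3 at 1.26 (-1.42 and -2.53) and CAVIN2 at 1.35 (-1.06 and -2.47). Nearest to ESRP1 were FAM129A at 0.29 (3.46 and -0.04), the calcineurin regulator RCAN1 at 0.42 (3.33 and 0.20) and the protease inhibitor SERPINB13 at 0.44 (4.17 and 0.16). Genes close to OVOL1 were STON2 at 0.08 and PDCD1LG2 at 0.10. Nearest to KLF4 were SLC7A2 at 0.05, FMNL1 at 0.08 and CSGALNACT1 at 0.10. ELF3 had TMEM225B, ESRP2 had TFDP1 and GRHL1 had ELF2 at 0.01, and CRYZL1 was nearest to KLF5, in crowded parts of the plot of differences from the shared controls.

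**Figure D5:**
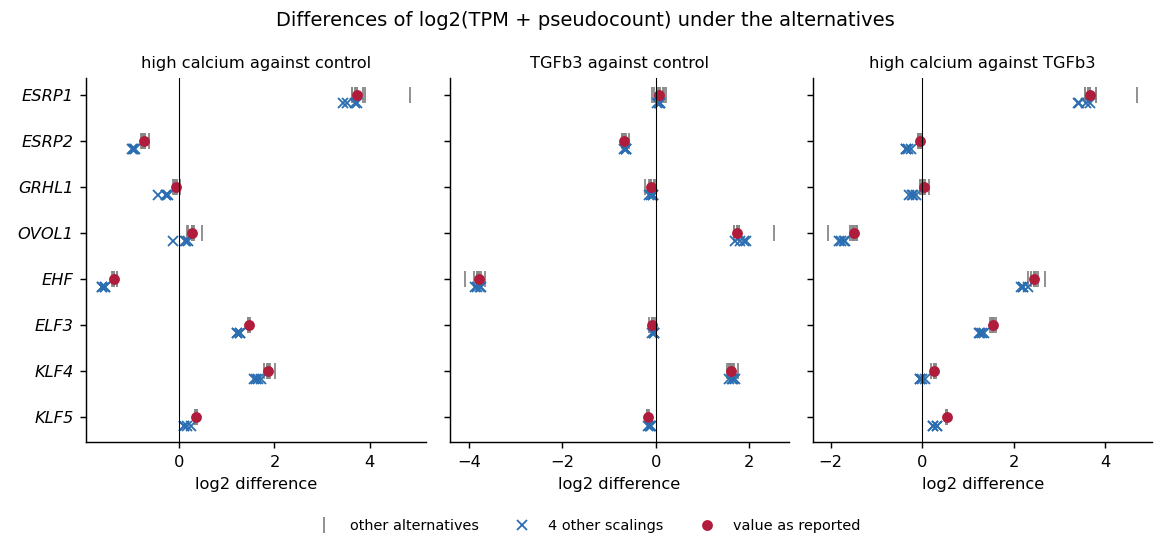
Log2 differences of the 8 tested genes in the 3 comparisons: red points are the values as reported, grey ticks the alternatives that keep the deposited scaling, and blue crosses 4 other scalings. ESRP1 in high calcium ranges from 3.43 to 4.85 and EHF after TGFb3 from -4.08 to -3.66, while KLF4 between the treatments lies on both sides of 0 (-0.04 to 0.29).

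Directions and calls of ESRP1, ESRP2, EHF, ELF3, KLF4 and KLF5 in high calcium were the same under all 19 alternatives. Those of EHF, ESRP2 and KLF4 after TGFb3 were the same under all 19, and that of OVOL1 under the 18 in which it was tested.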

How the data were processed

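Per the labels' protocols, Trizol RNA of 9 MCF10A samples was read as 101 bp paired ends on an Illumina NovaSeq. HISAT2 and hg38 are named in the submitters' processing notes; for the quantifier, annotation, strandedness and tool version the sources used here give nothing. The authors' deposited table holds TPM for 58288 entries in 9 columns, all matched to samples by label. Entries sharing a symbol (1932 entries, 253 symbols) were summed. TPM keeps no depth, so no counting interval is given.

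All 9 samples and 3 groups were fitted with limma 3.58.1 (R 4.3.3; trended variance, 6 residual degrees of freedom) on log2(TPM + 1), after removal of symbols averaging under 1 TPM. Single values were compared by exact two-sided permutation tests (scipy 1.17.1). The fit was tested on simulated data with as many rises as falls and no general shift. That test says nothing on the scaling between groups. The 9 genes, lists and tests were chosen with earlier results of these data known. Named were all 9 genes, up to 4 called genes of each list with the largest differences, and the 3 genes nearest in the pair of differences; genes of small counts were named after their values were seen, and a few genes are not reported here. Alternatives were another pseudocount, 2 filters, 4 scalings, a replicate block, only the compared groups, a variance without a trend and each sample left out. Promoter sequences are from RefSeq (GRCh38.p14), matched by symbol for 5 of the 9 genes used here; positions and exons are from GENCODE 29 (hg38, 1-based).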

Additional observations from a re-analysis of the deposited data

How the results depend on the processing

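In high calcium against control, genes higher and lower were 4117 and 4312 after median ratio rescaling, 3991 and 4464 after quantile normalisation, and 4217 and 4319 with mitochondrial genes left out and median ratio rescaling, an alternative chosen after seeing the data. With mitochondrial genes left out alone, 4649 were higher and 3791 lower. In high calcium against TGFb3 the same settings gave 4114 and 4306, 4364 and 4181, 4208 and 4324, and 5100 and 3468. After TGFb3 the counts of 3703 higher and 4623 lower became 4035 and 4271 with median ratio rescaling, and 3021 and 4092 with a minimum mean of 5 TPM. Under each of these 4 scalings 2 of the 9 genes were lower in high calcium than after TGFb3, since ESRP2 joined OVOL1. With a minimum mean of 5 TPM, OVOL1 and GRHL1 were no longer tested, which left 1 gene higher after TGFb3 and 0 lower in high calcium against TGFb3. KLF4 in high calcium against TGFb3 was -0.04 after median ratio rescaling, with mitochondrial genes kept or left out. The difference from the control in high calcium turned from 7.35 to -8.92 TPM for the EHF and ELF3 sum and from 5.94 to -0.786 for the ESRP sum with median ratio rescaling, which was applied to the sums after seeing the data; the GRHL1 and GRHL3 sum went from -1.20 to -4.19 and the KLF4 and KLF5 sum from 77.3 to 30.7.

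Leaving out each sample in turn gave 4 higher and 2 lower of the 8 tested genes in high calcium. It gave 2 higher and 3 to 4 lower after TGFb3, and 4 to 5 higher and 1 lower between the treatments. Over all 13968 tested symbols the counts were 5901 to 6430 higher and 2125 to 2398 lower in high calcium. After TGFb3 they were 3347 to 3736 and 4220 to 4545, and between the treatments 6526 to 7114 and 2059 to 2309. Of the alternative values for other named genes 1945 kept direction and call, 42 lost a call and 13 gained one. Same-numbered samples of different groups did not deviate together (9 correlations across genes, lowest -0.07, none above 0), so the numbers were not taken to pair the samples. With a replicate block 6258 genes were higher and 2299 lower in high calcium, and 3589 and 4455 after TGFb3. The block ended the call of KLF4 between the treatments (0.25, adjusted p = 0.057) and changed no other call of the 9 genes. TPM keeps no depth, so how far counting error limits ESRP1 and OVOL1 in the controls is unknown.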

Other observations

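Some relatives of the 9 genes were below the filter on low values and were noticed only after their values were seen. ETV2, an ETS factor best known from early endothelium, was listed at 0 in the 3 control samples. Its mean was 1.35 ± 0.310 TPM in high calcium and 0.132 ± 0.229 TPM after TGFb3. KLF15 was at 0.614 ± 0.134 TPM in the controls, 1.47 ± 0.211 TPM in high calcium and 0.0189 ± 0.0328 TPM after TGFb3. The epidermal factor ZNF750 was at 0.791 ± 0.0129, 0.319 ± 0.0421 and 0.844 ± 0.215 TPM in the same order. These levels are low, their depth is unknown, and none of the 3 was tested.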
